A study of Rattus norvegicus with 6 samples.

Results

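The genes described here encode 9 proteins that fold or dispose of proteins in the endoplasmic reticulum (ER), and the transcription factor XBP1. They are Hspa5, Dnajb9, Sdf2l1, Hsp90b1, Calr, Canx, Pdia4, Pdia6, Herpud1 and Xbp1. Members were found by gene name in the count table, and every row without a gene name that overlapped a member on its own strand was added. This gave 13 of 43035 rows, which are the 10 gene rows and 3 unannotated transcripts that cover Hsp90b1, Calr and Xbp1. A filter on low counts kept 11 of the 13 rows among 15513 rows tested. The gene rows of Calr and Xbp1 held 0 counts in every library and were not tested.

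Secreted and membrane proteins fold in the ER with the help of an HSP70 chaperone and its cofactors, an HSP90 chaperone, lectins that bind sugar chains, and isomerases that form disulfide bonds. When unfolded proteins build up, the sensors ATF6, IRE1 and PERK start the unfolded protein response. ATF6 is cut and IRE1 splices the Xbp1 mRNA, and both steps give transcription factors that raise chaperone genes, whereas PERK slows translation and raises ATF4 and its target CHOP. In heart muscle the same chaperones serve the sarcoplasmic reticulum, the calcium store of the muscle cell.

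The cells were neonatal cardiomyocytes of Sprague-Dawley rats of postnatal day 1, in primary culture without a genetic change. The control group (si-NC, 3 libraries) received a scramble siRNA, the other group (si-DYRK1A, 3 libraries) an siRNA against the kinase DYRK1A, and RNA of both was taken after 48 h. Reads were counted per gene and transcript, and values are given as CPM (counts per 1000000 counts of the library, after TMM scaling) or as FPKM, which also divides by gene length. The labels call the libraries biological replicates and do not say whether each came from its own cell isolation, so that p-values measure the spread between these libraries.

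Counts of the target were no lower under the label si-DYRK1A than in si-NC. The Dyrk1a gene row held 0 to 3 counts per library, and the unannotated transcript covering it (chr11:34840290-34959417, Rnor_6.0) stood at 77.7 ± 3.22 CPM in si-NC and 82.4 ± 2.70 in si-DYRK1A (SD, n = 3), with a log2 fold change of 0.08 (SE 0.0575, edgeR quasi-likelihood test, Benjamini-Hochberg adjusted p = 0.374). Libraries held 10325074 to 11921772 counts in si-NC and 10703229 to 11723974 in si-DYRK1A. The 10 gene rows of the members, without the unannotated transcripts over Hsp90b1, Calr and Xbp1, took 0.572% to 0.596% of them. In bulk RNA, fewer cells of a type and less RNA per cell cannot be told apart. Cell type markers differed between the groups. Of 4 tested cardiomyocyte markers of 10 listed, 3 were called higher (Actn2, Nppa and Pln, the last not by DESeq2, adjusted p = 0.0736). The gene row of Tnnt2, which an unannotated transcript also overlaps, went the other way and was not called (log2 fold change -0.14, edgeR adjusted p = 0.595). The summed level of the list ran from 8881.9 to 9728.4 CPM in si-NC and from 11402.3 to 12252.5 in si-DYRK1A. Most of that sum was Nppa, at 7556.6 ± 370.6 and 9781.9 ± 474.8 CPM (SD, n = 3). Myh6, Myh7, Myl2 and Tnni3 were at 0 in their gene rows, all covered by unannotated transcripts. Of 6 tested fibroblast markers of 8, 2 were called higher (Postn, Lum). The Postn gene row held only 71 to 182 counts per library, and an unannotated transcript overlaps it. Col1a1 measured 14341.4 ± 1916.8 and 11113.2 ± 196.3 CPM (SD, n = 3), with a log2 fold change of -0.37 (edgeR adjusted p = 0.0869, DESeq2 adjusted p = 0.0122). Sums of the fibroblast list were 21531.1 to 26244.7 and 20368.1 to 21106.6 CPM, with Pdgfra at 0. Of 5 tested endothelial markers of 6, 3 were called lower (Cdh5, Tek, Tie1), with sums of 163.0 to 178.7 and 130.4 to 137.0 CPM. No marker of macrophages (4 of 6 tested, 154.1 to 173.2 and 138.4 to 158.6 CPM, Cd68 at 0) or of smooth muscle (2 of 6 tested, 555.6 to 562.8 and 545.1 to 569.3 CPM, Acta2, Myh11 and Notch3 at 0) was called by edgeR or DESeq2, and 3 and 1 of them were lower at an unadjusted p below 0.05. Unannotated transcripts also overlap the gene rows at 0 of Pdgfra, Cd68, Acta2, Myh11 and Notch3, so those rows cannot be read as absence. Most of the smooth muscle sum was Cnn1, at 556.4 ± 3.31 and 553.7 ± 12.5 CPM (SD, n = 3). The part of the cell type markers in the values below was not tested.

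Most of the members' promoters searched carry elements through which ATF6 and XBP1 are known to act, and those sites are shown so that the letters can be read beside the values. The members were chosen as genes of this branch of the response, so that finding its elements here follows from the choice. Promoters of RefSeq (GRCr8, 250 bases before to 50 after the start) were on hand for 9 of the 10 members, all except Pdia6. The ER stress response element (ERSE, which is CCAAT and CCACG with 9 bases of any kind between, either strand) was found in 5 of the 9 and in 22 of 33469 promoters of all genes (0.0657%). ERSE-II (ATTGG and CCACG with 1 base of any kind between, either strand) was found in Herpud1 and in 17 promoters of all (0.0508%). In the lines that follow, capitals mark the CCAAT or ATTGG and the CCACG of each element, with 4 bases on either side, each read 5′ to 3′ on the strand that holds the motif.
Hspa5: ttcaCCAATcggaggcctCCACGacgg
Hsp90b1, distal: aaacCCAATcgaaaggagCCACGcttc
Hsp90b1, proximal: cccaCCAATcgtgcctcaCCACGcact
Calr: tgggCCAATcagggtcgaCCACGcgtt
Canx: ttgtCCAATcatcacgctCCACGaaga
Xbp1: caggCCAATcgcagacggCCACGaccc
Herpud1: gctgATTGGgCCACGttgg

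Positions given here span the printed letters, with the 4 bases on either side, whereas distances from the start are those of the element alone. The Hspa5 element lies within chr3:38452969-38452995 on the plus strand, 25 to 43 bases upstream of the start. That of Xbp1 lies at chr14:84604554-84604580 on the plus strand, 47 to 65 bases upstream. Hsp90b1 holds 2 copies, at chr7:23012447-23012473 on the minus strand (158 to 176 bases upstream) and at chr7:23012343-23012369 on the plus strand, opposite to the gene (54 to 72 bases upstream). The Canx site is farther out, at chr10:35158065-35158091 on the minus strand (212 to 230 bases upstream), as is the Calr site, at chr19:40213131-40213157 on the minus strand, opposite to the gene in this build (214 to 232 bases upstream). The ERSE-II of Herpud1 is at chr19:10614817-10614835 on the minus strand, 114 to 124 bases upstream. The XBP1 site UPRE (TGACGTGG, either strand) was in 0 of the 9 promoters and in 199 of all (0.595%). The short CCACG, which is also a part of ERSE and of ERSE-II, was in all 9 and in 31.6% of all promoters, and it was the only one of these motifs found in Sdf2l1, Dnajb9 and Pdia4.

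Across the members, Sdf2l1 rose and no other member passed the test. Of the 11 rows tested, 1 was called higher and 0 lower at an adjusted p below 0.05 (9.09%), against 15.2% of all rows tested (8.03% higher, 7.19% lower), so that members were not called more often than rows at large. DESeq2 gave the same counts of 1 and 0, and at an unadjusted p below 0.05 there were 2 higher (Sdf2l1, Pdia4) and 2 lower (Herpud1, the Calr transcript). The median log2 fold change of the 11 rows was 0.07, from -0.38 to 0.45, beside 0.00 for all rows, and 8 of the 11 (72.7%) were above 0, beside 50.4% of all rows. The 6 libraries did not overlap between groups in 5 of the 11 rows (45.5%), against 31.5% of all rows, with 3 rows above their si-NC libraries (Sdf2l1, Canx and Pdia4, against 16.2% of all rows) and 2 below (Herpud1 and the Calr transcript, against 15.3%). Each of these 5 had p = 0.1 in an exact permutation test (two-sided), which is the smallest value that 3 libraries against 3 allow. Herpud1 lay next to the threshold and was called lower in 6 of 17 alternative settings.

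**Figure D1:**
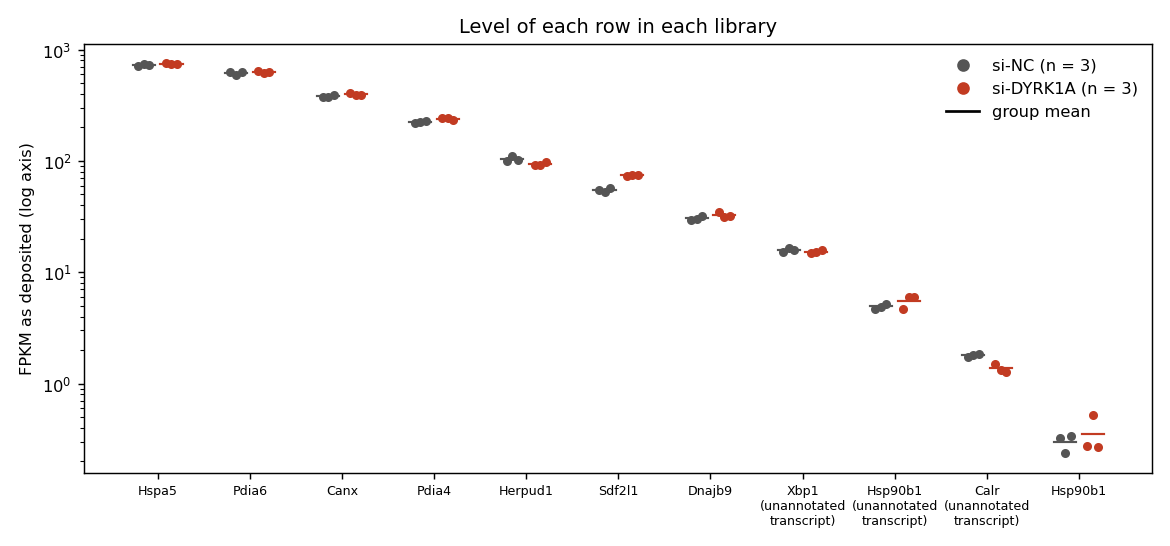
Level of each tested row in each library, as deposited FPKM on a log axis, with points for the 3 si-NC (grey) and 3 si-DYRK1A (red) libraries and a line at each group mean. Hspa5 stands highest at 715.7 to 750.2 FPKM. The groups of Sdf2l1 lie apart, at 52.4 to 57.1 in si-NC against 73.2 to 75.1 in si-DYRK1A. Those of the transcript over Calr also lie apart, at 1.73 to 1.84 against 1.28 to 1.5.

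The levels of the members differed far more between genes than between groups. On the FPKM scale Hspa5 was the most abundant (715.7 to 750.2 over the 6 libraries), followed by Pdia6 (589.9 to 636.6), Canx (373.0 to 407.1) and Pdia4 (221.0 to 242.0). Lower levels were listed for Herpud1 (91.4 to 109.6), Sdf2l1 (52.4 to 75.1) and Dnajb9 (29.3 to 35.1). The ranges of neighbours in this order of gene rows did not overlap. Among the gene rows tested that of Hsp90b1 came last, at 0.237 to 0.526 FPKM, which is not the level of the whole locus because of the overlapping transcript. The unannotated transcripts covering Xbp1, Hsp90b1 and Calr stood at 15.8 ± 0.550, 4.93 ± 0.243 and 1.79 ± 0.0549 FPKM in si-NC (SD, n = 3).

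Hspa5 encodes BiP, the HSP70 chaperone of the ER lumen, which binds unfolded chains and holds the stress sensors inactive. The gene (ENSRNOG00000018294, chr3:13838304-13842762, plus strand, Rnor_6.0) measured 1851.1, 1918.5 and 1883.0 CPM in si-NC replicates 1 to 3 and 1941.0, 1924.5 and 1906.7 CPM in si-DYRK1A replicates 1 to 3. The groups overlapped, since si-NC replicate 2 stood above si-DYRK1A replicate 3. The log2 fold change was 0.03 (SE 0.0376, 95% interval -0.05 to 0.11, edgeR adjusted p = 0.663). With 19305 to 22686 counts per library, its SE was the smallest of the 11 rows.

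Sdf2l1, an ER-resident partner of BiP and its J-domain cofactors that helps keep unfolded chains soluble, was the member that rose. The gene (ENSRNOG00000001859, chr11:88122271-88124513, plus strand, Rnor_6.0) measured 58.8, 55.9 and 61.1 CPM in si-NC and 78.6, 80.6 and 80.1 CPM in si-DYRK1A. Every library labelled si-DYRK1A was above every si-NC library, and the means were 58.6 ± 2.62 and 79.8 ± 1.03 CPM (SD, n = 3). The difference was 1.36-fold (36.2%), with a log2 fold change of 0.45 (SE 0.0605, 95% interval 0.32 to 0.57, edgeR adjusted p = 2.11e-05). In size it exceeded the absolute log2 fold change of 82.8% of all rows tested, and over 17 alternative settings it ran from 0.41 to 0.47 with adjusted p from 1.85e-09 to 0.0133. No unannotated transcript and no other annotated gene overlapped it.

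Dnajb9, the J-domain protein ERdj4 that delivers unfolded chains to BiP, did not pass the test. The gene (ENSRNOG00000004006, chr6:64165913-64170151, minus strand) measured 69.1, 69.8 and 75.4 CPM in si-NC and 82.9, 73.9 and 75.6 CPM in si-DYRK1A. si-NC replicate 3 lay between the libraries of the other group, and si-DYRK1A replicate 1 was the highest of all. Its log2 fold change was 0.12 (SE 0.0627, 95% interval -0.01 to 0.25, edgeR adjusted p = 0.239).

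**Figure D2:**
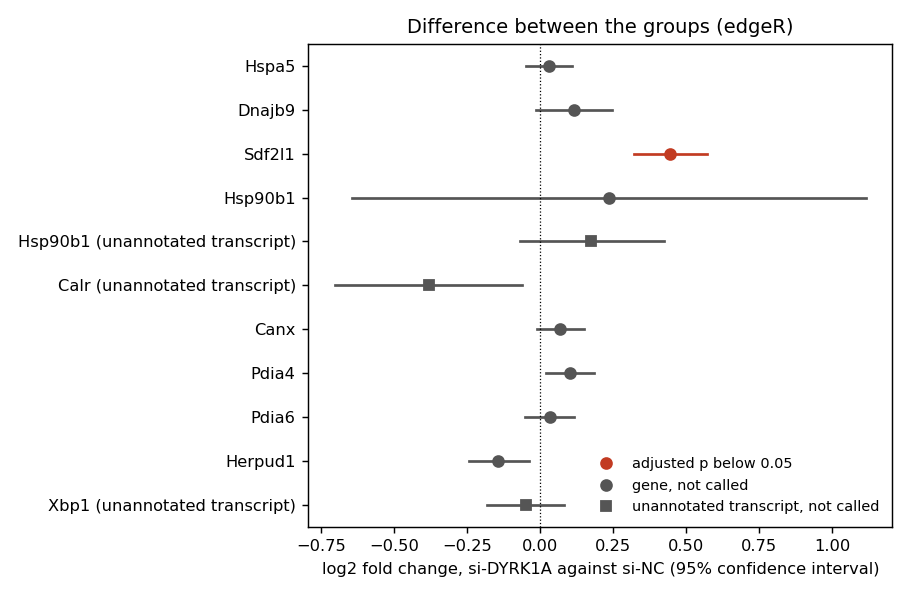
Log2 fold change of each tested row, si-DYRK1A against si-NC, from edgeR with its 95% confidence interval; circles are gene rows, squares are unannotated transcripts, and red marks an adjusted p below 0.05. Sdf2l1 at 0.45 is the only red point, and the interval of the Hsp90b1 gene row is the widest, from -0.65 to 1.12.

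Hsp90b1 encodes GRP94, the HSP90 chaperone of the ER, and its counts were divided between overlapping rows. The gene row (ENSRNOG00000026963, chr7:27226569-27240533, minus strand) held 11, 9 and 13 counts in si-NC and 10, 18 and 10 in si-DYRK1A, too few for a firm value (log2 fold change 0.24, SE 0.424, edgeR adjusted p = 0.779). The unannotated transcript on the same strand (chr7:27226570-27240758), described in the deposited table as holding an Hsp90 protein domain, took 93.9% of the counts of both rows. It covers the whole gene span and starts 225 bases further upstream, and the other annotated gene that it overlaps, the microRNA row AABR07056495.1, held 0 counts, as did an unannotated row on the opposite strand. Its levels were 14.4, 14.9 and 15.8 CPM in si-NC and 14.2, 18.3 and 18.5 CPM in si-DYRK1A, so that si-DYRK1A replicate 1 was the lowest of all libraries and replicates 2 and 3 the highest. This gave a log2 fold change of 0.18 (SE 0.119, 95% interval -0.07 to 0.42, edgeR adjusted p = 0.368), and that of the summed rows, a sum chosen after the data had been seen, was also 0.18 (edgeR adjusted p = 0.348). How the counting assigned reads that both rows could hold is not given in the sources used here.

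Calr and Canx encode calreticulin, which is soluble, and calnexin, which spans the membrane, and both hold glycoproteins in the folding cycle. The Calr gene row (ENSRNOG00000003029, chr19:25956771-25961666, minus strand) was at 0 in all libraries. The unannotated transcript that covers it, described in the deposited table as of the calreticulin family, runs 7281 bases further 3′ (chr19:25949490-25961666), so that reads from outside Calr may be in it. It measured 8.92, 9.13 and 9.45 CPM in si-NC and 7.74, 6.78 and 6.58 CPM in si-DYRK1A. All si-DYRK1A libraries were below all si-NC libraries, with 72 to 113 counts behind each value. The log2 fold change of -0.38 (SE 0.154, 95% interval -0.70 to -0.06) had an unadjusted p of 0.0218 and did not pass after adjustment (edgeR adjusted p = 0.106), and over 17 alternatives its adjusted p ran from 0.0803 to 0.274.

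Canx (ENSRNOG00000003343, chr10:35800942-35833861, minus strand) measured 1902.6, 1865.6 and 1961.6 CPM in si-NC and 2049.8, 1972.6 and 1987.2 CPM in si-DYRK1A. The groups did not overlap, but the gap from the highest si-NC library to the lowest si-DYRK1A library was smaller than the spread within either group. The difference was 0.07 on the log2 scale (SE 0.0387, 95% interval -0.01 to 0.15, edgeR adjusted p = 0.266).

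Pdia4 and Pdia6 encode protein disulfide isomerases, ERp72 and P5, which form and rearrange disulfide bonds. Pdia4 (ENSRNOG00000006228, chr4:77470636-77489535, minus strand) measured 519.5, 525.8 and 530.0 CPM in si-NC and 568.2, 568.5 and 553.5 CPM in si-DYRK1A. All si-DYRK1A libraries were above all si-NC libraries, and the means were 525.1 ± 5.30 and 563.4 ± 8.59 CPM (SD, n = 3). The log2 fold change of 0.10 (SE 0.0399, 95% interval 0.02 to 0.18) had an unadjusted p of 0.0191 and did not pass after adjustment (edgeR adjusted p = 0.0965, and 0.0957 to 0.251 over 17 alternatives). On the same strand 1 other annotated gene overlaps Pdia4, and its part in these counts was not tested. Pdia6 (ENSRNOG00000050197, chr6:42568220-42585652, plus strand) measured 1111.2, 1046.3 and 1122.4 CPM in si-NC and 1136.6, 1101.2 and 1114.9 CPM in si-DYRK1A, with overlapping groups. Its log2 fold change was 0.03 (SE 0.0407, 95% interval -0.05 to 0.12, edgeR adjusted p = 0.675).

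Herpud1 encodes a membrane protein of ER-associated degradation, which carries misfolded proteins out to the proteasome. The gene (ENSRNOG00000018796, chr19:11046909-11057254, minus strand) measured 185.4, 202.5 and 189.2 CPM in si-NC and 170.0, 170.0 and 182.9 CPM in si-DYRK1A. All si-DYRK1A libraries were below all si-NC libraries, with si-DYRK1A replicate 3 closest to them. The log2 fold change of -0.14 (SE 0.0494, 95% interval -0.25 to -0.04) had an unadjusted p of 0.00879 and missed the threshold (edgeR adjusted p = 0.0555). It passed with RLE scaling (adjusted p = 0.0463), with library size only (0.0204), with no filter (0.0322), with at least 10 counts in every library (0.0499), without si-NC replicate 3 (0.0499) and without si-DYRK1A replicate 3 (0.0463) in edgeR, and its adjusted p reached 0.243 among the others.

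Xbp1 encodes the factor that IRE1 activates by splicing. Its gene row (ENSRNOG00000010298, chr14:85753760-85758145, plus strand) was at 0 in all libraries, and its counts lay in an unannotated transcript (chr14:85753733-85760812) that overlaps no other annotated gene, runs 2667 bases further 3′ and is described in the deposited table as holding a basic region leucine zipper. This transcript measured 59.1, 62.9 and 61.1 CPM in si-NC and 57.9, 58.4 and 60.8 CPM in si-DYRK1A. The groups overlapped, with si-NC replicate 1 below si-DYRK1A replicate 3. Its log2 fold change was -0.05 (SE 0.0634, 95% interval -0.18 to 0.08, edgeR adjusted p = 0.677). Counts per gene do not tell the spliced from the unspliced Xbp1 mRNA.

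**Figure D3:**
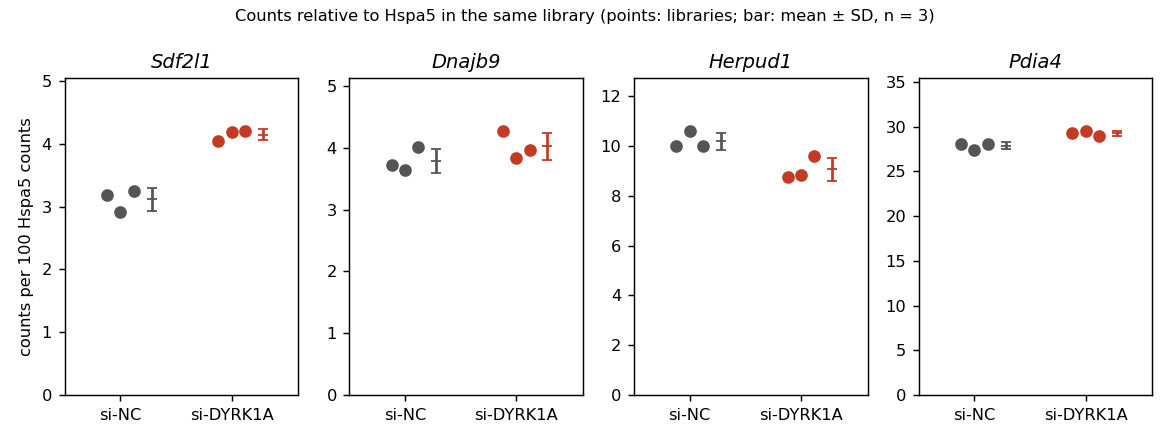
Counts of Sdf2l1, Dnajb9, Herpud1 and Pdia4 per 100 Hspa5 counts of the same library, with each axis from 0, a point for each library and a bar for the mean ± SD (n = 3 per group). Sdf2l1 moved from 3.11 to 4.15 and Herpud1 from 10.2 to 9.06, in opposite directions with no overlap between groups.

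Ratios within a library need no scaling between libraries, and they place the members against Hspa5. Per 100 Hspa5 counts, Sdf2l1 had 3.18, 2.91 and 3.25 counts in si-NC and 4.05, 4.19 and 4.2 in si-DYRK1A. Herpud1 had 10.2 ± 0.3 and 9.06 ± 0.461 counts per 100 of Hspa5, and Pdia4 27.9 ± 0.405 and 29.3 ± 0.256 (SD, n = 3). For these 3 ratios the groups did not overlap, and each had p = 0.1 in the exact two-sided permutation test (0.2 after Benjamini-Hochberg adjustment over 6 ratios). The ratios of Dnajb9 (3.79 ± 0.191 and 4.03 ± 0.220), Canx (101.4 ± 3.67 and 104.1 ± 1.56) and Pdia6 (58.1 ± 3.06 and 58.1 ± 0.749) overlapped, with exact permutation p of 0.3, 0.4 and 1. Relative to BiP, Sdf2l1 and Pdia4 thus stood above and Herpud1 below the range of the si-NC libraries.

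The mean profile of the 11 rows, centred for each row, varied little over the libraries. The median of the rows in each library ran from -0.07 to 0.02 in si-NC and from 0.01 to 0.03 in si-DYRK1A on the log2 CPM scale, and si-NC replicate 3 lay within the range of the other group. Profiles were compared with the members' mean over the 6 libraries for 3511 annotated genes whose log2 CPM averaged 5 or more. The members and all genes of the pathway and marker lists were left out, so no listed ER gene could be found this way. The closest were Lrch1, Samm50, Atox1, Psmb1 and RGD1307235, with root mean square distances of 0.01 to 0.02 log2 units. The distance is a description, and the gene row of Hsp90b1, with few counts, weighs as much in that mean as Hspa5.

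The rest of the pathway was read from 9 lists of 103 genes, of which 75 were tested. Among them 5 were called higher and 9 lower (18.7%, against 15.2% of all rows tested), and the median log2 fold change was 0.00, as for all rows. Of the 28 not tested, 25 lie under an unannotated transcript of their strand, as Calr and Xbp1 do.

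**Figure D4:**
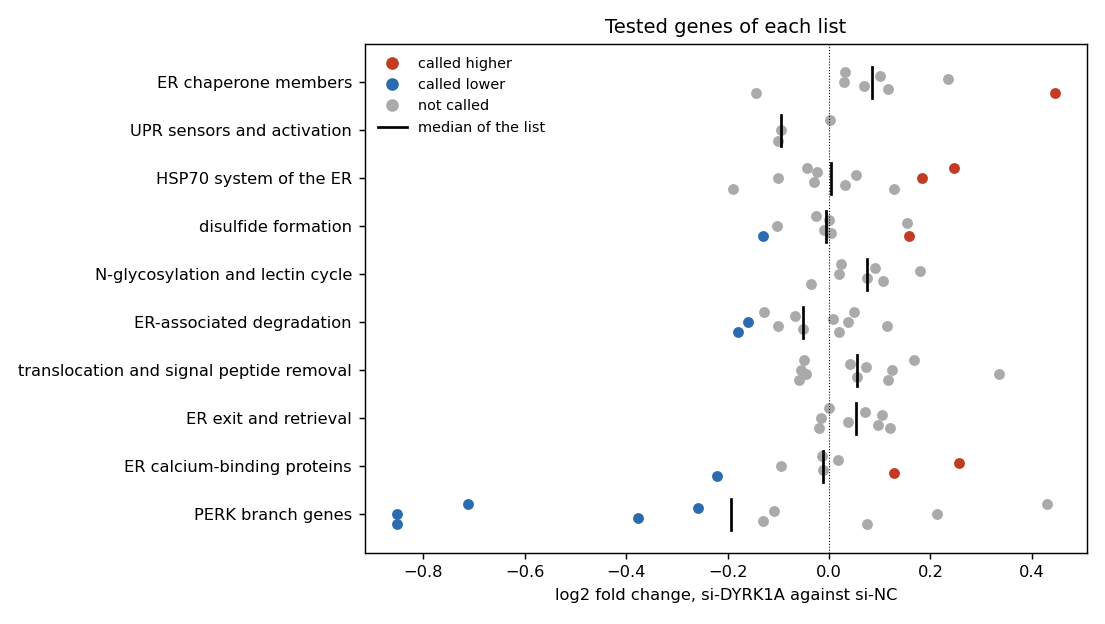
Log2 fold change, si-DYRK1A against si-NC, of each tested gene row of the members and of the 9 pathway lists, with called genes in red (higher) or blue (lower) and a bar at the median of the list. The PERK branch reaches furthest to the left, to -0.85, and Sdf2l1 at 0.45 is the called point furthest to the right.

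Among the stress sensors and their activators, 3 of 7 were tested and 0 were called by edgeR or DESeq2, with none at an unadjusted p below 0.05. Ern1, which encodes IRE1, measured 81.7 ± 2.64 and 76.3 ± 1.79 CPM (SD, n = 3), with a log2 fold change of -0.10 (SE 0.0565, edgeR adjusted p = 0.269). Eif2ak3, which encodes PERK, measured 74.6 ± 4.83 and 74.7 ± 0.685 CPM, with a log2 fold change of 0.00 (SE 0.0609, edgeR adjusted p = 0.986). Atf6 at 0 counts and Atf6b at no more than 6 counts per library were not tested, and unannotated transcripts cover both.

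Among other partners of BiP, Manf and Dnajb11 also rose. Of 10 tested genes of the HSP70 system of the ER, 2 rose and 0 fell (median log2 fold change 0.00). Manf, a secreted ER protein that binds BiP, measured 371.3, 352.6 and 367.2 CPM in si-NC and 438.4, 428.5 and 426.9 in si-DYRK1A, with a log2 fold change of 0.25 (SE 0.0418, edgeR adjusted p = 0.000267). Dnajb11, the J-domain protein ERdj3 that forms a complex with Sdf2l1, measured 304.8, 309.0 and 313.1 CPM in si-NC and 357.9, 344.6 and 350.0 in si-DYRK1A, with a log2 fold change of 0.18 (SE 0.0417, edgeR adjusted p = 0.004). Neither gene overlapped between groups, and both calls held in all 17 alternatives, with adjusted p of at most 0.0225 for Manf and 0.0466 for Dnajb11. The promoter of Dnajb11 is among the 17 that hold ERSE-II. Of the genes whose promoters hold ERSE, 1 of 10 tested was called higher (Birc5, a gene of cell division), and of those with ERSE-II 2 of 7 (Dnajb11 and Rcl1), with none lower. Among all rows tested 8.03% were called higher and 7.19% lower, so these small counts do not set the carriers apart. The carriers were chosen after their values had been seen.

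In disulfide formation 1 of 8 tested genes rose and 1 fell. Prdx4, an ER peroxiredoxin, measured 239.2 ± 11.8 and 266.8 ± 2.37 CPM (log2 fold change 0.16, edgeR adjusted p = 0.0222), and P4hb, the main protein disulfide isomerase, 2319.3 ± 33.7 and 2119.3 ± 19.2 CPM (log2 fold change -0.13, edgeR adjusted p = 0.0198; SD, n = 3). These calls were lost in 9 and 5 of 17 alternatives, and an unannotated transcript overlaps the P4hb gene row. In ER-associated degradation 0 of 11 rose and 2 fell, beside Herpud1 at the threshold. Sel1l, the adaptor of the HRD1 ubiquitin ligase, measured 463.7 ± 8.72 and 409.6 ± 17.6 CPM (log2 fold change -0.18, edgeR adjusted p = 0.00655), and Faf2, which recruits the ATPase VCP, 148.7 ± 7.11 and 133.1 ± 3.25 CPM (log2 fold change -0.16, edgeR adjusted p = 0.0331), with calls lost in 4 and 9 of 17 alternatives. The Faf2 gene row is also overlapped by an unannotated transcript.

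No gene passed in N-glycosylation and the lectin cycle (7 of 12 tested, median log2 fold change 0.08), in translocation and signal peptide removal (11 of 14 tested, 0.06) or in ER exit and retrieval (8 of 11 tested, 0.05), by edgeR, DESeq2 or limma. In each of these 3 lists 2 genes were higher and 0 lower at an unadjusted edgeR p below 0.05. Of 7 tested calcium-binding proteins of the ER, 2 rose and 1 fell. Atp2a2, the calcium pump SERCA2, went from 3222.3 ± 89.2 to 3849.8 ± 93.5 CPM (log2 fold change 0.26, edgeR adjusted p = 6.64e-05), and Casq2, the calcium buffer of cardiac muscle, from 966.7 ± 2.15 to 1056.6 ± 26.8 CPM (log2 fold change 0.13, edgeR adjusted p = 0.0286, lost in 11 of 17 alternatives). Rcn1, a reticulocalbin of the secretory pathway, went from 1152.4 ± 40.1 to 989.4 ± 15.5 CPM (log2 fold change -0.22, edgeR adjusted p = 0.000586). An unannotated transcript also overlaps the Casq2 gene row. Of the 4 tested cardiomyocyte markers given above, 3 were also called higher in these libraries and Tnnt2 was not. The part of these markers in the values of Atp2a2 and Casq2 was not tested.

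Of 10 tested genes listed for the PERK branch, 5 fell and 0 rose (50%), against 7.19% lower and 8.03% higher among all rows tested. Their median log2 fold change was -0.19, with 3 of the 10 above 0. Whether PERK itself accounted for their values was not tested. Ddit3, which encodes CHOP, measured 103.5, 96.0 and 107.4 CPM in si-NC and 58.5, 63.8 and 65.0 in si-DYRK1A (log2 fold change -0.71, SE 0.0614, edgeR adjusted p = 4.79e-08). Trib3, a pseudokinase induced by CHOP, and Chac1, which breaks down glutathione, each had a log2 fold change of -0.85 (edgeR adjusted p = 3.22e-09 and 2.8e-07). The other calls were Ppp1r15a (-0.38), the phosphatase subunit that reverses the action of PERK, and Asns (-0.26), asparagine synthetase. Among those not called were Vldlr (0.43, edgeR adjusted p = 0.272) and Stc2 (0.21, edgeR adjusted p = 0.103), with positive values, and Sesn2 (-0.13, edgeR adjusted p = 0.0987) and Atf3 (-0.11, edgeR adjusted p = 0.405). Atf4 itself measured 6.83 ± 1.96 and 7.18 ± 1.19 CPM in its gene row (log2 fold change 0.08, SE 0.205, edgeR adjusted p = 0.86), which an unannotated transcript also covers. The difference between these genes and the members was not tested.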

How the data were processed

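Groups and replicate numbers came from the sample labels. The authors deposited raw counts per gene and FPKM values; a check showed FPKM to be the count over the gene length times 1 constant per library. The study's methods give HISAT2, Rnor_6.0, a NEBNext kit and rats of up to 2 days, whereas the submitters' processing notes list mm8 and Bowtie 0.12.2 and the labels a TruSeq kit; the row identifiers are rat Ensembl genes. No source used here gives the counting tool, the annotation release or the use of strand, so reads of overlapping or antisense rows may be mixed. Totals of 10325074 to 11921772 counts per library set the precision.

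Counts of all rows were tested in R 4.3.3 with edgeR 4.0.16, by its quasi-likelihood test (robust, TMM, filterByExpr with a minimum count of 10 and a total of 15), two-sided, with Benjamini-Hochberg adjustment over 15513 rows and a threshold of 0.05. SEs are the log2 fold change over the square root of F. Alternatives were DESeq2 1.42.0, RLE, library size only, no filter, a minimum of 10 counts in each library, each library left out, the replicate block, limma 3.58.1 on log2(FPKM + 1) or log2(FPKM + 0.1) above 0.5 FPKM in 3 libraries or unfiltered, an adjusted p below 0.01, and summed overlapping rows. Summing changed only the counts of Hsp90b1, Calr and Xbp1, so that calls of other genes could hardly move in those settings. The scripts were tested on simulated data. Named were all members, Dyrk1a, the sensors with Atf4 and Ddit3, up to 3 calls per direction in each list, and the 5 closest profiles; the other genes of the PERK list, the marker genes, Birc5, Rcl1 and Sec61g were added after their values were seen. Members and lists were chosen with earlier results of these data known. Of the 103 listed genes, 101 were matched by symbol. Promoter sequences and positions in GRCr8 are from RefSeq.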

Additional observations from a re-analysis of the deposited data

How the results depend on the processing

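The call of Sdf2l1 held in every alternative run. Members called went from 1 to 2, and members called lower from 0 to 1, by the addition of Herpud1, with RLE scaling, with no filter on low counts, with library size only and with at least 10 counts in every library; with each library left out in turn they ran from 1 to 2 and from 0 to 1, the higher values without replicate 3 of si-NC or of si-DYRK1A. Genes called in the pathway lists went from 14 to 9 in limma on log2(FPKM + 1) with no filter and from 9 to 17 with a library left out (9 without si-DYRK1A replicate 2), and those called higher from 5 to 3 with library size only (beside 11 lower, against 5 and 9), in the limma fits on log2(FPKM + 1), log2(FPKM + 0.1) and without the filter, and at an adjusted p below 0.01, and from 3 to 7 with a library left out (3 without replicate 1 of si-NC, and without replicate 2 or 3 of si-DYRK1A). The sign of small log2 fold changes turned for Hsp90b1 (-0.15 without si-DYRK1A replicate 2, range to 0.40 over libraries left out), Pdia6 (-0.002 without si-NC replicate 2, to 0.044), Atf4 (-0.14 without si-NC replicate 2, to 0.26, with -0.04 when si-DYRK1A replicate 3 was left out) and Eif2ak3 (-0.002 in DESeq2, -0.003 with RLE, -0.024 with library size only, -0.007 with no filter, -0.05 without si-NC replicate 2, to 0.041, with -0.004 when si-DYRK1A replicate 1 was left out, -0.001 in each limma fit). Over all rows, 1245 calls higher and 1115 lower became 823 and 752 in DESeq2, 662 and 537 or 655 and 525 in limma at the pseudocounts of 1 and 0.1, 344 and 247 in limma with no filter, and 723 and 584 at an adjusted p below 0.01. The cause was not tested. Samples with the same replicate number showed no shared deviation (r = 0.06, -0.03 and -0.004 across genes, which are not independent). Samples with different numbers had r from -0.06 to 0.06. These values cannot tell whether libraries of the same number came from 1 cell isolation. With the replicate block in edgeR, 1 member and 12 list genes (5 higher, 7 lower) were called. P4hb (adjusted p = 0.0552), Faf2 (0.0604) and Casq2 (0.0674) were lost and Sec61g (log2 fold change 0.35, 0.0308) was gained. In all, single genes lost a call in 38 values (Prdx4, P4hb, Sel1l, Faf2 and Casq2) and gained it in 6 (Herpud1). Few counts lay behind the gene row of Hsp90b1 and the transcript over Calr, and the rows at 0 under unannotated transcripts could not be read: 65% of 60 listed genes so covered had under 10 counts in every library, against 1.18% of 85 others.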
